A study of Sus scrofa with 5 samples.

Results

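The genes described here encode ion channels and their subunits: potassium channels (symbols beginning KCN), voltage-gated sodium channels (SCN followed by a digit), the epithelial sodium channel (SCNN1) and the CLC chloride channels and transporters (CLCN). They were chosen by symbol alone, and 110 of the 15235 symbols of the pig count table matched. Of these, 65 had 50 or more counts over the 5 libraries and were tested among 12481 genes that met the same minimum. The other 45 are given as counts only.

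The study took kidney core biopsies during the transplantation of a pig kidney into a human recipient, and total RNA was sequenced after ribosomal RNA depletion. Untransplanted kidney at 0 h gave the controls, 2 libraries called replicates 1 and 2. The xenograft was sampled 1 time each at 12, 24 and 48 h, so the 3 biopsies are from a single graft at different times. The labels give no genotype, breed or age for the pigs, no treatment beyond transplantation, and do not say whether the controls came from separate animals, so the p-values below speak only of spread among the 5 libraries. One label field calls the material dissociated cells and the protocol describes homogenised cores.

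Kidney tubules move salt, potassium and acid through channels placed on either face of the epithelial cell. Potassium channels of the basolateral face set the membrane voltage and return potassium that the sodium pump has taken up. ROMK (KCNJ1) and the large-conductance calcium-activated channel secrete potassium into the urine, while the epithelial sodium channel (ENaC) of the distal nephron takes up sodium under the control of aldosterone. CLC proteins carry chloride across the plasma membrane or exchange it for protons in endosomes and lysosomes. Other channels in kidney tissue belong to vessels, nerves and immune cells.

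Pig-table totals ran from 56129926 to 71108823 counts per library and the 65 tested channel genes together took 0.158% to 0.253% of them. Levels are given as CPM, counts relative to a library size corrected by TMM for differences in RNA composition. The 13 mitochondrial genes took 21.9% and 33.4% of counts in the controls and 11.8% to 14.5% in the biopsies. The control pair differed by more than sampling noise over 58 channel genes (chi-square per degree of freedom 14.6). Among the 39 with 50 or more counts in both controls, the level in replicate 2 was 0.70 to 1.26 times that in replicate 1. Defining markers of the labelled tissue were present in every library, with UMOD of the thick ascending limb at 2665 and 2544 CPM in the controls and 5124, 4987 and 3378 CPM at 12, 24 and 48 h.

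Which channel genes differed between graft and untransplanted kidney was addressed by setting the 3 biopsies against the 2 controls. In the edgeR quasi-likelihood fit, with p adjusted by Benjamini-Hochberg over all genes, 27 of the 65 passed at an adjusted p of 0.05, 41.5% against 37.6% of all genes tested. Of these, 15 were higher (23.1%, against 18.5% of all genes) and 12 lower (18.5%, against 19.1%). The same shares of all genes are the background of the family counts that follow, most of which rest on few genes. The share of channel genes that passed was thus close to that of the whole table, and the median log2 fold change was 0.20 over the channel genes and 0.03 over all genes. In 23 of the 65 all 3 biopsies lay above both controls (35.4%, against 33.7% of all genes), and in 20 all lay below (30.8%, against 32.6%). The calls rested on the control pair: without control replicate 1, 3 genes were higher and 4 lower, and without control replicate 2, 1 was higher and 2 were lower. Calls over all genes also fell in these fits, from 2315 higher and 2383 lower to 741 and 1059 without replicate 1 and 459 and 715 without replicate 2.

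**Figure D1:**
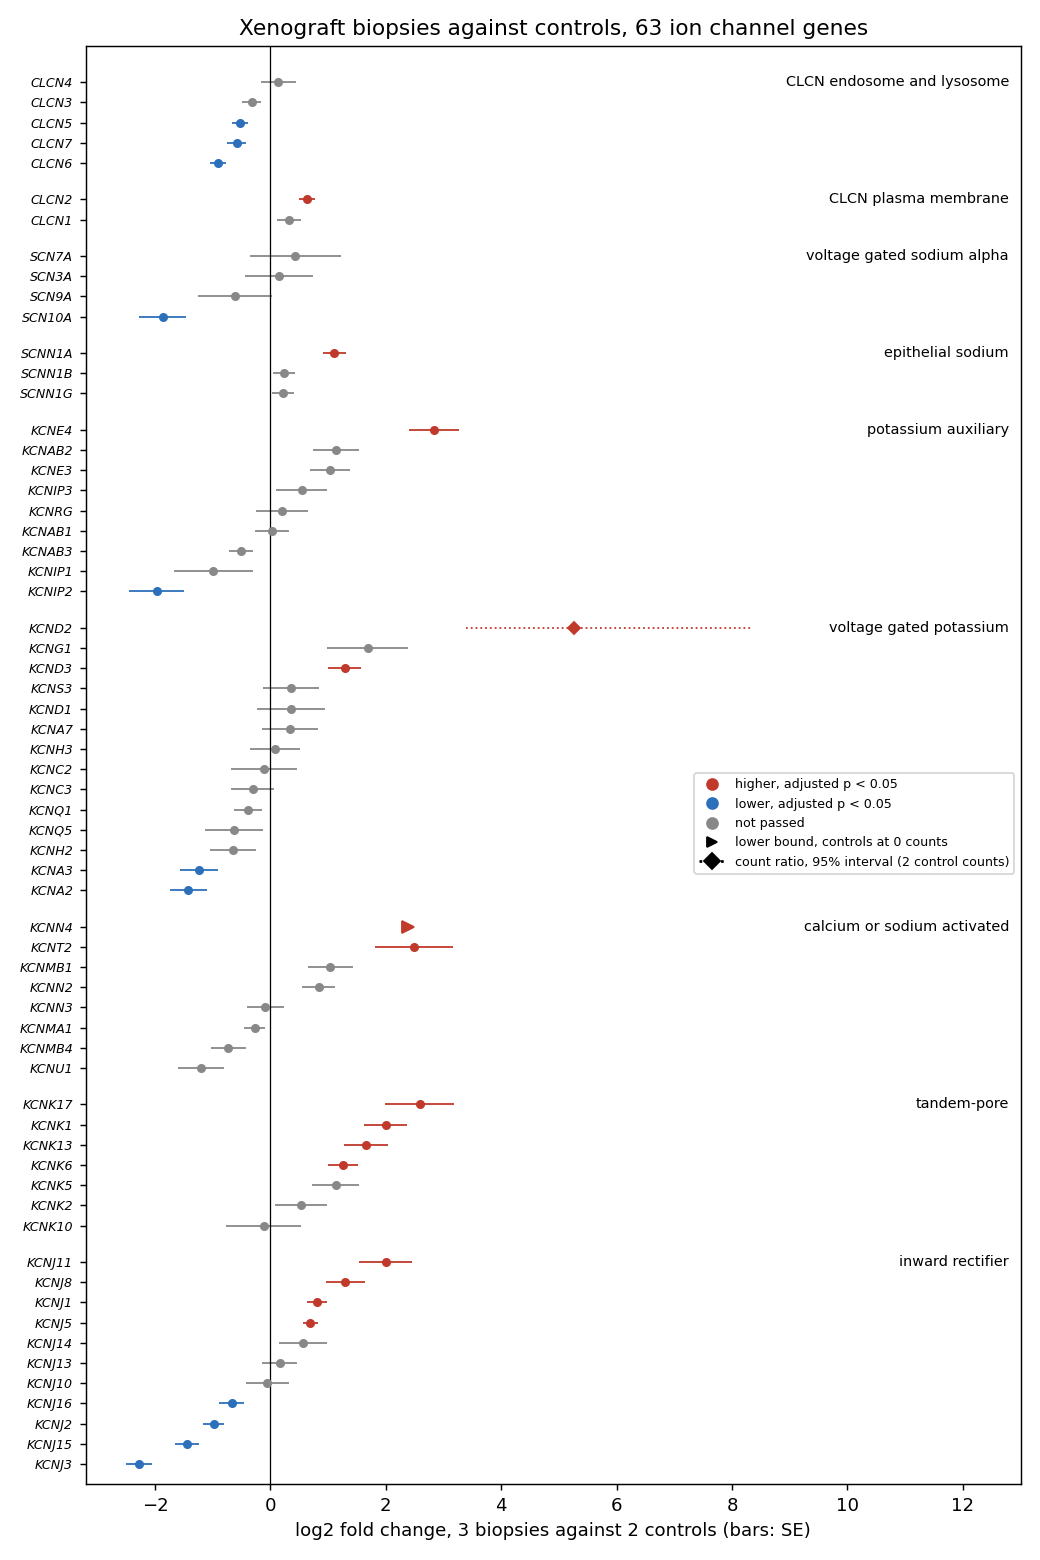
Log2 fold change of 63 of the 65 tested channel genes, 3 biopsies against 2 controls, by family (points, with SE as bars; triangle, KCNN4 at its lower bound; diamond, KCND2 as a count ratio with its 95% interval). Inward rectifiers spread from -2.27 to 1.99, while endosomal and lysosomal CLCN genes lie between -0.91 and 0.14.

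Inward rectifier potassium channels (KCNJ) divided, with 4 of 11 higher, 4 lower and 3 that did not pass (median log2 fold change 0.16). KCNJ15, a basolateral channel of the proximal tubule, was at 532 and 466 CPM in the controls and 181, 227 and 142 CPM at 12, 24 and 48 h. All biopsies were below both controls, and the gene was 2.72-fold lower (log2 -1.45 ± 0.21, SE, 3 biopsies against 2 controls, adjusted p = 0.00278). It passed in each of the 11 alternative fits. KCNJ16 and KCNJ10 encode partners in a basolateral channel of the distal convoluted tubule and collecting duct. KCNJ16 was at 462 and 402 CPM in the controls and 217, 346 and 251 CPM in the biopsies. It was 1.59-fold lower (log2 -0.67 ± 0.21, adjusted p = 0.0449), but did not pass when either control, the 12 h or the 48 h biopsy was left out. KCNJ10 was at 47.3 and 43.9 CPM in the controls and 29.9, 69.5 and 32.3 CPM in the biopsies, above both controls at 24 h and below both at 12 and 48 h (log2 -0.05 ± 0.38, adjusted p = 0.921). The KCNJ10 value depended on which biopsy was left out, being 0.16 without 12 h, 0.12 without 48 h and -0.55 without 24 h, and it passed in the last of these.

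Among inward rectifiers of the apical face, KCNJ1 was at 132 and 119.9 CPM in the controls and 207, 263 and 193 CPM in the biopsies. All biopsies were higher, by 1.76-fold in the fit (log2 0.81 ± 0.17, adjusted p = 0.0107), and the call was lost when either control was left out. The bulk libraries cannot tell a change in the number of cells of a type from a change in RNA per cell, and markers of several segments differed between the arms. All 8 proximal tubule markers were lower, with a summed level of 12569 and 12860 CPM in the controls against 2110 to 3208 CPM in the biopsies. Of 5 thick ascending limb markers 3 were higher and 1 lower (summed level 3335 and 3127 CPM against 3996 to 5673). Most of this sum was UMOD (2665 and 2544 CPM against 5124, 4987 and 3378 CPM). CLDN10 was lower (191.9 and 208.9 CPM against 65.4, 100.8 and 98.8 CPM) and SLC12A1 did not pass. Of 5 principal cell markers 3 were higher (summed level 180.3 and 179.8 CPM against 251 to 487). Of 4 distal convoluted tubule markers 1 was lower, SLC12A3, and their summed level was 2047 and 1786 CPM in the controls and 1006, 3364 and 896 CPM in the biopsies. Most of that sum was CALB1 (1847 and 1563 CPM against 967, 3265 and 830 CPM), which did not pass. SLC12A3 was at 164 and 192 CPM against 26.7, 74.1 and 46.4 CPM, and TRPM6 and PVALB had negative log2 values without passing. The part of these shifts in the channel results was not tested.

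**Figure D2:**
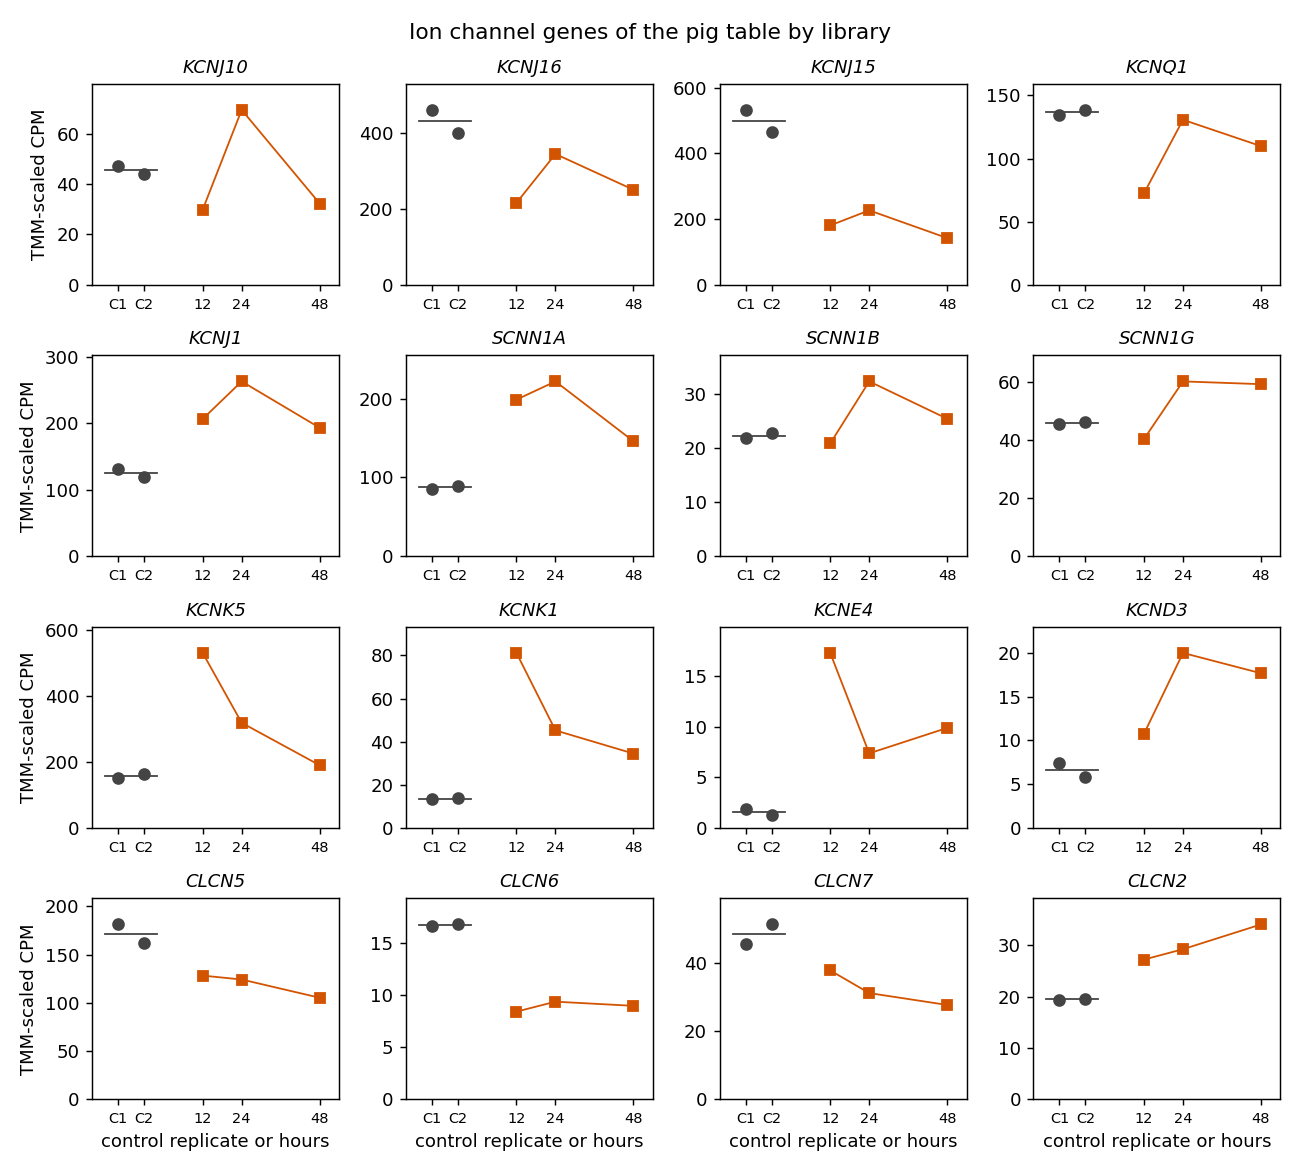
TMM-scaled CPM of 16 channel genes in each library (circles: controls C1 and C2, with their mean as a line; squares: biopsies by hours, each axis from 0). KCNJ15 and CLCN5 lie below both controls at every time, KCNJ1 and SCNN1A above both, and KCNK5 and KCNK1 descend from a 12 h maximum.

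Both pore genes of the ATP-sensitive potassium channel were higher. KCNJ8, the form of vascular muscle, was at 2.11 and 1.67 CPM in the controls and 3.18, 5.98 and 4.83 CPM in the biopsies (2.46-fold, log2 1.30 ± 0.34, adjusted p = 0.0232). KCNJ11 had 21 and 10 counts in the controls against 72, 105 and 57 in the biopsies (3.99-fold, log2 1.99 ± 0.46, adjusted p = 0.0146). Their regulatory partner ABCC9 was 3.63-fold higher (1.21 and 0.96 CPM against 1.88, 4.75 and 5.18 CPM, log2 1.86 ± 0.48, adjusted p = 0.0234), while ABCC8 was too low to be tested. KCNJ8 did not pass when either control or the 24 h biopsy was left out, nor KCNJ11 when either control was left out. Of 7 smooth muscle and pericyte markers 5 were higher. The summed level of the 7 was 391.98 and 320.2 CPM in the controls and 523, 558 and 954 CPM at 12, 24 and 48 h. This sum was highest at 48 h, KCNJ8 and KCNJ11 at 24 h. ACTA2 and RGS5 did not pass, and RGS5 had a negative value (51.9 and 53.2 CPM against 19.1, 21.9 and 55.5 CPM, log2 -0.71). The part of these markers in the result was not tested.

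The remaining inward rectifiers included both directions of change. KCNJ3, a pore subunit of G protein-gated channels, was at 7.28 and 8.14 CPM in the controls and 1.53, 1.76 and 1.49 CPM in the biopsies, with no overlap. It was 4.83-fold lower (log2 -2.27 ± 0.23, adjusted p = 0.000871) and passed in all 11 alternative fits. KCNJ5, which pairs with KCNJ3 in such channels, was at 35 and 33 CPM against 50, 55.9 and 58.8 CPM, 1.62-fold higher (log2 0.69 ± 0.13, adjusted p = 0.00645). KCNJ2, a widely expressed channel of muscle and endothelium, was 1.98-fold lower (22.6 and 22.6 CPM against 12.6, 9.14 and 12.5 CPM, log2 -0.99 ± 0.17, adjusted p = 0.00582). The calls of KCNJ5 and KCNJ2 were lost when either control was left out. KCNJ13 (log2 0.16 ± 0.30) and KCNJ14 (log2 0.57 ± 0.41) did not pass.

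Tandem-pore (KCNK) potassium channels, which carry background current, had 4 of 7 members higher and 0 lower (median log2 fold change 1.26, against 0.03 over all genes). KCNK1, found along the nephron, was at 13.2 and 13.7 CPM in the controls and 81.1, 45.2 and 34.5 CPM at 12, 24 and 48 h. Every biopsy was above the controls, and the gene was 3.99-fold higher (log2 2.00 ± 0.38, adjusted p = 0.00939). KCNK5, an alkali-activated channel of the proximal tubule, was at 152 and 165 CPM in the controls and 531, 319 and 190.1 CPM in the biopsies. Its biopsies also lay above both controls without passing (log2 1.13 ± 0.41, adjusted p = 0.0753). KCNK5 passed without the 48 h biopsy (log2 1.42) and with DESeq2 (1.12).

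The other tandem-pore genes that passed had low counts. KCNK6 was at 2.23 and 1.86 CPM in the controls and 5.62, 4.52 and 4.56 CPM in the biopsies (2.39-fold higher, log2 1.26 ± 0.25, adjusted p = 0.00923). KCNK13, known from microglia among other cells, had 22 and 14 counts in the controls against 79, 61 and 75 in the biopsies (3.16-fold higher, adjusted p = 0.0142). KCNK17 had 4 and 2 counts against 30, 16 and 24 counts (6.01-fold higher, adjusted p = 0.0147). The calls of KCNK1, KCNK6, KCNK13 and KCNK17 were lost when either control was left out. The mechanosensitive channels KCNK2 (log2 0.53 ± 0.45) and KCNK10 (log2 -0.11 ± 0.65) did not pass.

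Of 8 calcium- or sodium-activated potassium channel genes, 2 were higher and 0 lower (median log2 fold change 0.37, the same with KCNN4 at its bound). KCNN4, an intermediate-conductance channel of red cells, lymphocytes, macrophages and injured fibroblasts, had 0 counts in both controls and 25, 22 and 13 counts at 12, 24 and 48 h. Against a floor of 3 counts per control library it was at least 5.20-fold higher (adjusted p = 0.00544), and it passed in the 8 alternatives in which it was tested. KCNT2, a sodium-activated channel gene, had 7 and 2 counts in the controls against 51, 24 and 22 in the biopsies (5.61-fold higher, log2 2.49 ± 0.67, adjusted p = 0.0264). Its log2 fold change was 3.50 without control replicate 1 and 1.94 without replicate 2, and it passed in neither fit (adjusted p = 0.0751 and 0.183).

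The large-conductance channel gene KCNMA1 was at 7.27 and 7.87 CPM in the controls and 6.67, 5.93 and 6.17 CPM in the biopsies and did not pass (log2 -0.27 ± 0.18, adjusted p = 0.264). Its muscle subunit KCNMB1 (log2 1.04 ± 0.39) and its subunit KCNMB4 (log2 -0.73 ± 0.30) did not pass either (adjusted p = 0.0761 and 0.0941), although KCNMB1 passed without the 48 h biopsy (log2 1.24). KCNN2, a small-conductance channel gene, was at 2.51 and 2.57 CPM against 5.86, 3.98 and 3.78 CPM (adjusted p = 0.0552), and KCNN3 had log2 -0.09 ± 0.32. KCNU1, known as a sperm channel gene, was at 35.9 and 40.9 CPM in the controls and 8.03, 20.2 and 21.7 CPM in the biopsies (adjusted p = 0.0575). The human table held 0.61 to 1.03 counts for each 100 pig-table counts of KCNU1, against a median of 19.6 over the channel genes in the controls.

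Voltage-gated potassium channel pores had 2 of 15 members higher and 3 lower (median log2 fold change -0.12). KCNQ1, an epithelial and cardiac channel, was at 135 and 138 CPM in the controls and 72.4, 131 and 109.8 CPM in the biopsies. All biopsies lay below the controls, but the gene did not pass (log2 -0.39 ± 0.24, adjusted p = 0.231). KCNA2, a channel of axons, was at 4.84 and 4.95 CPM against 1.86, 2.39 and 1.22 CPM (2.68-fold lower, log2 -1.42 ± 0.32, adjusted p = 0.014). KCNA3, the main voltage-gated potassium channel of T cells, was 2.35-fold lower (1.62 and 1.21 CPM against 0.705, 0.577 and 0.521 CPM, log2 -1.24 ± 0.33, adjusted p = 0.0257). The 5 T and NK cell markers of the pig table were lower too, at a summed 20.8 and 23.2 CPM in the controls and 3.96 to 5.48 CPM in the biopsies, and their part in the KCNA3 result was not tested. The calls of KCNA2 and KCNA3 were lost when either control was left out, and that of KCNA3 also without the 24 h biopsy.

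KCND3 and KCND2 encode A-type channels, best known from heart and brain. KCND3 was at 7.4 and 5.8 CPM in the controls and 10.7, 20 and 17.7 CPM in the biopsies, 2.44-fold higher (log2 1.29 ± 0.29, adjusted p = 0.014), and did not pass when either control was left out. KCND2 had 2 and 0 counts in the controls and 32, 44 and 70 counts at 12, 24 and 48 h. The ratio of its scaled counts was 38.4, with an exact 95% interval of 10.5 to 320.5 for counting error (adjusted p = 0.00522), a call lost in the fit without control replicate 2 (adjusted p = 0.0548). The fitted log2 fold change of KCND2 was 5.15, or 4.30 without replicate 2. Without replicate 1 it was 8.53, a value that depends on the prior count since the remaining control had 0 counts. The other 10 pores did not pass, among them KCNG1 (0.167 and 0.134 CPM against 0.553, 0.756 and 0.164 CPM, adjusted p = 0.0982), which was above the controls at 12 and 24 h and overlapped them at 48 h, and KCNH2 (log2 -0.65 ± 0.40).

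Auxiliary potassium channel subunits had 1 of 9 members higher and 1 lower. KCNE4, which inhibits KCNQ1 and KCNA3 channels, was at 1.89 and 1.32 CPM in the controls and 17.3, 7.36 and 9.88 CPM at 12, 24 and 48 h. Every biopsy was above the controls, by 7.13-fold in the fit (log2 2.83 ± 0.43, adjusted p = 0.00396), and the call was lost without control replicate 2. KCNIP2, a partner of the A-type pores, was 3.93-fold lower (0.804 and 1.5 CPM against 0.428, 0.22 and 0.223 CPM, log2 -1.97 ± 0.47, adjusted p = 0.0166). The KCNIP2 call was lost without control replicate 2 or the 24 h biopsy. KCNE3 (1.66 and 1.36 CPM against 4.05, 2.18 and 3.08 CPM, adjusted p = 0.0519) and KCNAB2 (1.27 and 0.845 CPM against 2.65, 1.52 and 2.82 CPM, adjusted p = 0.0586) had all biopsies above the controls and did not pass, but KCNE3 passed with DESeq2 (log2 1.03) and without the 24 h biopsy (1.24). KCNAB3 (log2 -0.51 ± 0.21, adjusted p = 0.0945), KCNAB1, KCNIP1, KCNIP3 and KCNRG did not pass.

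The 3 ENaC subunits gave different values. SCNN1A, the alpha subunit that the channel needs to conduct, was at 86 and 89 CPM in the controls and 199, 222 and 146 CPM at 12, 24 and 48 h. It was 2.16-fold higher with no overlap (log2 1.11 ± 0.19, adjusted p = 0.00557), and did not pass when either control was left out. SCNN1B was at 21.8 and 22.8 CPM in the controls and 20.9, 32.3 and 25.4 CPM in the biopsies, and SCNN1G at 45.6 and 46.3 CPM against 40.4, 60.3 and 59.3 CPM. Neither passed (log2 0.23 ± 0.19, adjusted p = 0.376, and log2 0.21 ± 0.19, adjusted p = 0.402). In both, the 12 h biopsy was below the controls and the later biopsies were above them. SCNN1G passed without the 12 h biopsy (log2 0.38). Whether the subunits differed from each other was not tested.

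Voltage-gated sodium channel genes, typical of nerve and muscle, had 0 of 5 members higher and 1 lower. SCN10A, a sodium channel of sensory neurons, was at 2.56 and 2.23 CPM in the controls and 0.387, 0.659 and 0.924 CPM in the biopsies (3.64-fold lower, log2 -1.87 ± 0.40, adjusted p = 0.0119), and did not pass when either control was left out. SCN3A, SCN7A and SCN9A had 50 to 107 counts in all and did not pass. Among neuron and Schwann cell markers, UCHL1 was higher (2.65 and 3.3 CPM against 6.24, 7.65 and 11.9 CPM, adjusted p = 0.011). Whether nerve content had a part in the SCN10A result was not tested.

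Of the 5 endosomal and lysosomal CLC genes 3 were lower and 0 higher (median log2 fold change -0.53), where 19.1% of all genes were lower and 18.5% higher. CLCN5, the chloride-proton exchanger of proximal tubule endosomes that is mutated in Dent disease, was at 181 and 162 CPM in the controls and 128, 124 and 105 CPM in the biopsies (1.44-fold lower, log2 -0.53 ± 0.14, adjusted p = 0.0234). CLCN7, the lysosomal exchanger, was at 45.4 and 51.2 CPM against 37.7, 31.1 and 27.6 CPM (1.5-fold lower, log2 -0.59 ± 0.16, adjusted p = 0.0264). Its beta subunit OSTM1 was at 70.9 and 81.7 CPM against 89.3, 87 and 68.3 CPM and did not pass (adjusted p = 0.651). CLCN6, a late endosomal member, was 1.87-fold lower (16.7 and 16.8 CPM against 8.43, 9.38 and 8.98 CPM, log2 -0.91 ± 0.14, adjusted p = 0.00349). CLCN3 had all biopsies below the controls without passing (adjusted p = 0.142), and CLCN4 overlapped (log2 0.14 ± 0.31, or -0.13 without the 24 h biopsy). CLCN5 did not pass when either control was left out, CLCN7 when either control or the 24 h biopsy was left out, and CLCN6 without control replicate 2.

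At the plasma membrane, CLCN2 was at 19.4 and 19.7 CPM in the controls and 27.3, 29.3 and 34.1 CPM at 12, 24 and 48 h. It was 1.55-fold higher (log2 0.63 ± 0.14, adjusted p = 0.0137), a call lost when either control was left out. CLCN1, known from skeletal muscle, was at 25.7 and 24.8 CPM against 24.3, 30.5 and 40.2 CPM and did not pass (adjusted p = 0.261). The human table held at most 1 count of CLCN1 in any library. BSND, which encodes barttin, was 1.57-fold higher (6.93 and 7.1 CPM against 11.9, 12.1 and 9.01 CPM, log2 0.65 ± 0.19, adjusted p = 0.0345).

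Some channel genes overlap another gene in the RefSeq annotation of Sscrofa11.1, as did 8 of the 27 that passed, and whether counting used strand is not given in the sources used here. CLCN2 overlaps FAM131A, which was at log2 -0.06 ± 0.22 (adjusted p = 0.849). KCNJ16, KCNK17, KCND3 and SCN10A overlap long noncoding RNA genes, CLCN7 overlaps CCDC154 and a noncoding gene, and KCNJ2 and CLCN6 each overlap a coding gene.

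Partners and regulators of these channels, a list of 35 genes of which 29 were tested, had 11 members higher and 2 lower (median log2 fold change 0.27), where 18.5% of all genes were higher and 19.1% lower. The counts for its groups below have the same background. Of 11 tested genes for aldosterone and WNK kinase control 2 were higher and 0 lower. SGK1, the aldosterone- and glucocorticoid-induced kinase that keeps ENaC at the membrane, was at 338 and 317 CPM in the controls and 685, 579 and 525 CPM in the biopsies (1.82-fold higher, log2 0.87 ± 0.17, adjusted p = 0.00831). TSC22D3, another corticosteroid-induced gene, was 1.61-fold higher (log2 0.69 ± 0.15, adjusted p = 0.0117). NEDD4L, which removes ENaC from the membrane, had log2 -0.30 ± 0.11 and did not pass (adjusted p = 0.0686), nor did NR3C2, the mineralocorticoid receptor gene (log2 -0.15 ± 0.14).

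Of 7 proteases that can cleave ENaC, 3 were higher and 1 lower. TMPRSS4 was at 0.653 and 0.557 CPM in the controls and 11, 6.66 and 2.1 CPM at 12, 24 and 48 h (10.8-fold higher, log2 3.44 ± 0.74, adjusted p = 0.0139). ST14 and TMPRSS2 were 1.68-fold and 1.37-fold higher, and PLG, the plasminogen gene, was 2.88-fold lower (5.22 and 3.99 CPM against 1.48, 2.21 and 1.1 CPM). PRSS8 (log2 0.50 ± 0.17, adjusted p = 0.053), FURIN and PLAU did not pass.

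Of 7 tested pump, cotransporter and chloride channel genes, 4 were higher and 1 lower. FXYD4, a pump regulator of the collecting duct that is also on the principal cell list, was at 3.87 and 2.13 CPM in the controls and 60.2, 74.1 and 16.7 CPM in the biopsies (16.7-fold higher, adjusted p = 0.00824). SLC12A2 and CFTR were 3.41-fold and 5.06-fold higher. SLC12A3, the thiazide-sensitive cotransporter gene, was lower (log2 -1.86, adjusted p = 0.0136), and SLC12A1, of the thick ascending limb, did not pass (log2 0.03 ± 0.23).

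A line fitted to the 12, 24 and 48 h biopsies asked how the channel genes moved within the graft. In the edgeR quasi-likelihood fit 2 of the 65 fell and 0 rose (3.08% in all, against 4.39% of all genes, of which 3.39% rose and 1% fell). KCNK5, at 531, 319 and 190.1 CPM, fell by a log2 of 0.96 ± 0.15 per 24 h (adjusted p = 0.0118). KCNK1, at 81.1, 45.2 and 34.5 CPM, fell by a log2 of 0.77 ± 0.16 per 24 h (adjusted p = 0.0306). At 48 h KCNK5 was near its controls (152 and 165 CPM) while KCNK1 was still above them (13.2 and 13.7 CPM). KCNK5 passed in all 11 alternative fits, and the KCNK1 call was lost when control replicate 1, replicate 2 or the 12 h biopsy was left out. The fits without a biopsy take their spread from the control pair alone.

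At an unadjusted p of 0.05, 8 members rose and 5 fell with time, a threshold at which all genes were not counted. DESeq2 called 2 members rising and 2 falling, and 595 rising and 268 falling among the 12481 genes tested. KCNS3, a silent subunit that modifies other voltage-gated channels, was at 0.856, 1.14 and 2.43 CPM at 12, 24 and 48 h (log2 1.02 ± 0.24 per 24 h, adjusted p = 0.0568), and CLCN1 had a slope of 0.47 ± 0.12 (adjusted p = 0.0646). Both passed without the 24 h biopsy, and KCNS3 also without the 12 h biopsy. Such fits take their spread from the control pair alone, so passing them gives no check on the time course. Without the 24 h biopsy, slope calls over all genes also went from 423 rising and 125 falling to 1689 and 997. Among the 15 genes that were higher in the biopsies, 6 had their highest value at 12 h, 5 at 24 h and 4 at 48 h. Over the 65 members these maxima numbered 20, 24 and 21, and over all genes tested 4846, 3301 and 4334. A gene with its maximum or minimum at 24 h, such as KCNJ10, has no constant slope, and with 1 biopsy per time its course has no replicate check.

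**Figure D3:**
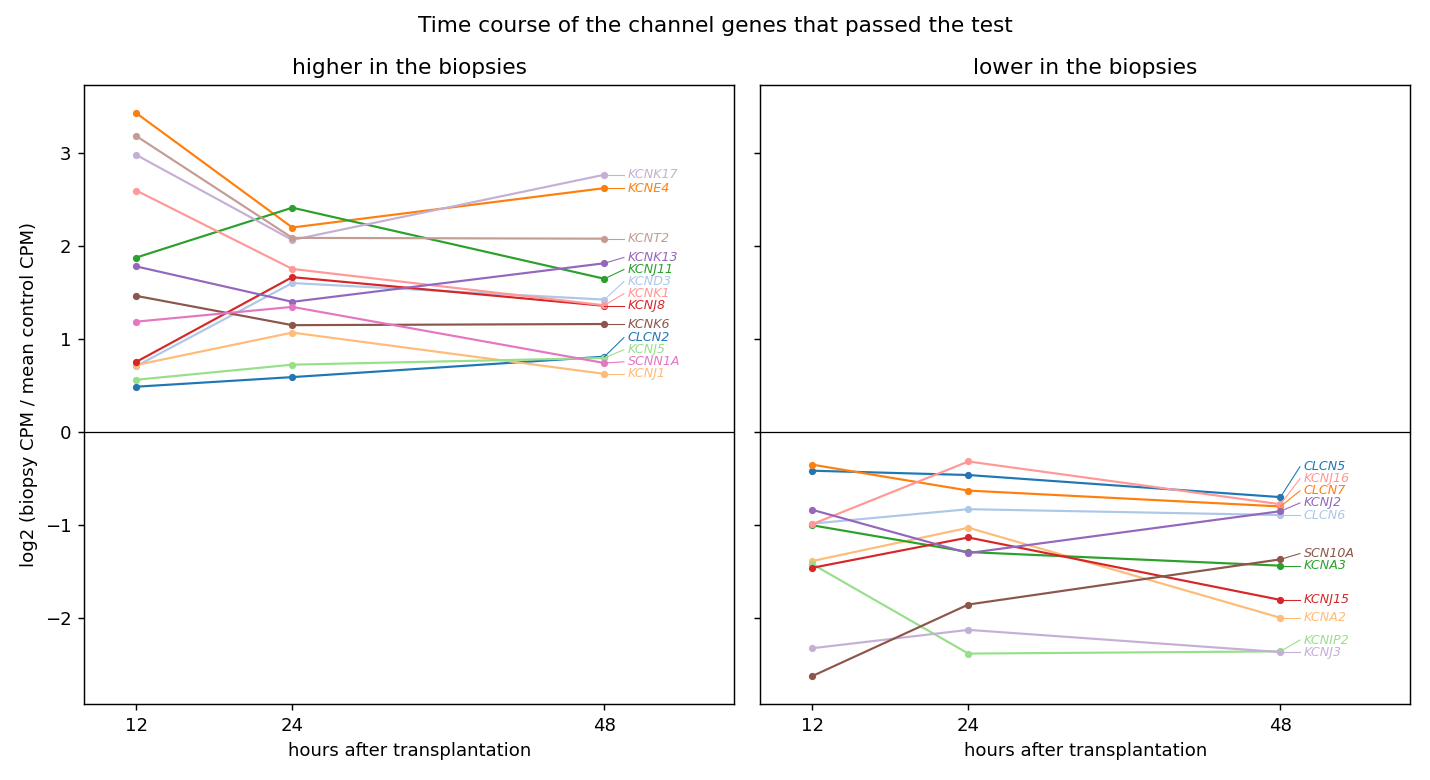
Log2 ratio of each biopsy to the mean of the 2 controls for the channel genes that passed, higher on the left and lower on the right, against hours (24 of 27 genes: KCNN4 and KCND2 are left out for their 0 to 2 control counts, and 1 gene is not reported by name). The KCNK1 and KCNE4 lines have their highest point at 12 h and the KCNJ8 and KCND3 lines rise to 24 h, while KCNJ3 stays within a narrow range.

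Human-table counts of the same symbols were compared with the pig-table counts, since the graft can hold cells of the recipient. Whether a read could be counted in both tables is not given in the sources used here. In the controls, which hold no recipient cells by their labels, the median ratio over the channel genes was 19.6 human-table counts to 100 of the pig table. It was 26.4 in the biopsies, where the ratio of the table totals was also higher (29.0 to 33.4, against 18.8 and 22.8). In 4 of 65 genes the ratio in every biopsy was more than 2 times that in both controls. The share of all genes that meet this rule was not counted. For KCNE3 the ratio was 2.02 and 1.41 among controls and was above both in the graft, at 98.6, 107 and 129 for 12, 24 and 48 h. KCNAB2 had ratios of 15.8 and 11.4 among controls against 122, 119.8 and 168 in the graft. KCNK6 had 1.5 and 0 against 15.7, 10.9 and 25.5, and KCNK17 had 0 in both controls and 6.67, 12.5 and 16.7. The KCNK17 ratios rest on 4 and 2 pig-table counts in the controls and on 2, 2 and 4 human-table counts in the biopsies. With so few control counts a ratio of 0 is uninformative, and any biopsy count exceeds 2 times 0.

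No other tested member had a ratio in every biopsy more than 2 times that in both controls. For KCNJ15 it was 2.4 and 2.18 among controls against 3.44, 3.07 and 3.57 in the graft. SCNN1A had 14.7 and 14.1 against 15.7, 14.9 and 15.3, KCNJ1 30.6 and 32.6 against 33.1, 32.8 and 32.2, and KCNE4 5.31 and 11.6 against 7.19, 9.14 and 9.5. In KCNJ2 the ratio was 18 and 15.9 among controls against 41, 34.1 and 52.9 in the graft, and in KCNMB1 2.7 and 11.8 against 33.3, 16.3 and 37.7. KCNN4 had 0 human-table counts in both controls, against 21, 11 and 14 for the biopsies, beside 25, 22 and 13 in the pig table, and no ratio can be formed for its controls. KCND2 had 2 human-table counts in each control and 65, 72 and 82 in the biopsies, beside 32, 44 and 70 in the pig table of the biopsies. Its pig-table counts were 2 and 0 in the controls, so its control ratio rests on 2 counts of replicate 1. The part of human reads in the pig-table values of KCNK6, KCNK17, KCNN4, KCND2, KCNE3 and KCNAB2 was not tested. Macrophage markers of the pig table also differed, 4 of 5 being higher (summed level 46.3 and 52.5 CPM against 284 to 407 CPM).

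**Figure D4:**
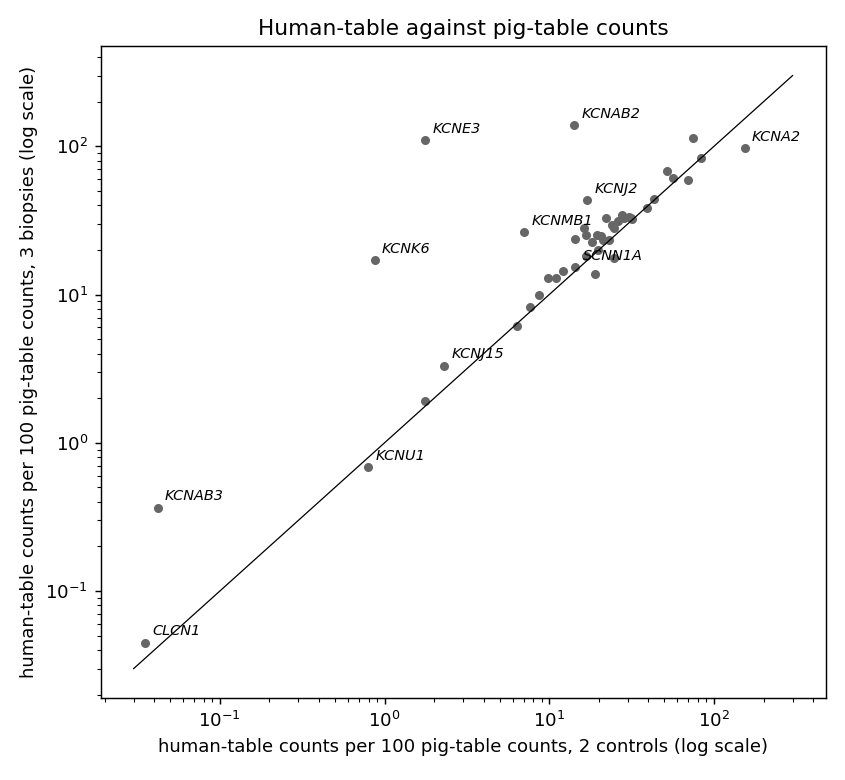
Ratio of human-table to pig-table counts (times 100) for the summed controls (x) and the summed biopsies (y), both on log axes, for the 46 channel genes with 50 or more control counts (the line marks equality). KCNE3, KCNAB2 and KCNK6 lie far above the line, as does KCNAB3 on 3 human-table counts in the controls, and most other genes lie near it.

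The 45 members under 50 counts were not tested, and 7 of them had 0 counts in all libraries: KCNA10, KCNH7, KCNK15, KCNK16, KCNS2, KCNV2 and SCN3B. KCNA10 is a panel gene of the kidney, as is KCNA1 with 1 count in all, and a count of 0 allows up to 0.0412 to 0.0576 CPM depending on the library. Nearest the limit of 50, KCNT1 had 48 counts in all and SCN7A had 50. KCNT1, a sodium-activated channel gene, had 26 and 12 counts in the controls against 2, 3 and 5 in the biopsies. KCNS1 had 12 and 10 counts in the controls and 0 in each biopsy, which puts it at least 4.63-fold lower against the floor of 3 counts per library. KCNK3, an acid-sensitive channel gene, had 2 and 6 against 9, 14 and 11 counts. These genes other than KCNA10, KCNA1 and KCNK3 were singled out after their values were seen. KCNE1, KCNE2 and SCNN1D of the kidney panel were not analysed here.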

How the data were processed

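Raw counts per gene symbol were deposited by the authors in 2 tables, 1 with a pig and 1 with a human genome. The build hg38 is given per the submitters' processing notes. The aligner, counting tool, strand setting and annotation are not given in the sources used here. Columns were matched to libraries by time and replicate. Analysis used R 4.3.3, edgeR 4.0.16, DESeq2 1.42.0, pandas 2.3.3 and scipy 1.17.1. Pig genes with 50 or more counts over the 5 libraries (12481 genes) were scaled by TMM and tested by edgeR's quasi-likelihood test with robust priors, with Benjamini-Hochberg adjustment at 0.05 over all these genes. The first fit set biopsies against controls, with 3 residual degrees of freedom, and its spread includes change over time. The slope was fitted within the xenograft (2 degrees of freedom). Each SE is the absolute log2 fold change over the square root of F. Intervals and floors cover counting error only.

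Alternatives were RLE size factors, DESeq2, filterByExpr, no count filter, mitochondrial genes left out, non-robust priors and each library left out. The fits were checked on simulated data. The members, families, panel of 37 kidney channels, partners and markers were chosen with earlier results of these data known. Named genes are all members that passed in either comparison, plus that panel, of which 29 were tested. Any other member given with values, such as KCNU1, KCNG1 or KCNAB2, was singled out after its values were seen. Of 110 members 108 were in an Ensembl name table and 106 in the RefSeq table of Sscrofa11.1. Some items are counted but not reported here by name.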

Additional observations from a re-analysis of the deposited data

Results flagged for a closer look

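KCNA5 and SCN4B were 2 of the channel symbols outside the tested pig-table genes with human-table counts above both controls in every biopsy. Counts were scaled by the TMM-corrected library sizes of the pig table to CPM. The share of all human-table genes above both controls was not counted. Human-table totals per 100 pig-table counts were also higher in the biopsies (29.0 to 33.4, against 22.8 and 18.8 in the controls). KCNA5 was at 0.067 and 0.0768 in the controls, the lowest biopsy at 0.194 and the highest at 0.332. SCN4B was at 0.0837 and 0.0576 in the controls against 0.166, 0.206 and 0.432 in the biopsies, on 3 to 29 counts per library. Neither was tested, and no value here separates pig from human reads in the biopsies.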

How the results depend on the processing

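With all 5 libraries, the 6 alternative settings kept each of the 27 members on its side of the threshold and in its direction where it was tested. The members called higher in the biopsies numbered 15 to 20 and those called lower 12 to 13. Leaving out a library changed more: with each left out in turn, 1 to 19 members were higher and 2 to 14 lower, the lowest counts being those without control replicate 2. Without control replicate 1, 20 of the 27 calls were lost, and 24 without control replicate 2, while 5 were lost without a biopsy. These fits have fewer residual degrees of freedom, and those with 1 control assume that it varies like the biopsies. In 3 genes, KCNJ15, KCNJ3 and KCNN4, the call held in every alternative in which they were tested. The log2 fold changes of KCNJ10 and CLCN4 turned sign when a biopsy was left out. That of KCNJ10 ran from -0.55 without the 24 h biopsy, where it passed, to 0.12 without 48 h and 0.16 without 12 h. That of CLCN4 ran from -0.13 without the 24 h biopsy to 0.29 without the 12 h biopsy. In the slope, DESeq2 called 2 members rising against 0, and with 1 library left out 0 to 10 were rising and 1 to 6 falling, where a fit without a biopsy takes its spread from the control pair alone. No paired analysis was possible because only the controls carry replicate numbers. Members under 50 counts in all were not tested, and at this depth their counts give at most a bound or a ratio with a wide interval.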
